A study of Mus musculus with 8 samples.

Results

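The genes described here are 38 genes of the cell division cycle, taken by symbol from a deposited table of 51810 genes; all 38 were in it. They were grouped by their known roles into 14 genes of DNA replication and nucleotide supply, 4 regulators of the step from G1 to S phase, and 20 genes of mitosis and of the G2 phase before it. RNA came from brain cells of wild-type mice that magnetic CD11b beads had picked out. CD11b sits on microglia, the resident macrophages of the brain, and also on neutrophils, monocytes and their later precursors. The 4 groups, with 2 libraries each, were white matter (corpus callosum) at 4 months, white matter at 21 months, grey matter at 4 months and grey matter at 21 months of age. All mice were wild type, and myelin was removed on a Percoll gradient in all groups. Grey matter libraries too carry the region label corpus callosum, so tissue label and titles alone tell the regions apart. The labels do not tie the libraries to animals, so p-values measure only how these samples spread, and that spread may be technical.

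Cells that divide copy their DNA in S phase and separate it in mitosis, and the genes for both are switched on in waves. Replication genes are driven mainly by E2F factors around the G1 to S transition. Mitosis genes are switched on later, in G2, through promoters that carry CCAAT boxes and an element called the cell cycle homology region. Microglia in the adult brain renew themselves slowly by local division, whereas precursors of granulocytes and red blood cells divide fast. Proliferation genes in a bulk sample can come from either kind of cell. Some replication genes, among them Pcna and the ribonucleotide reductase gene Rrm1, also serve DNA repair in cells that do not divide.

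The promoters of the members differed by role, and 4 of them are shown because they carry the motifs whose shares differed between replication and mitosis genes. Each is the stretch of 250 bases before the gene's start, on the gene's strand, from RefSeq on GRCm38.p6. Capitals mark the E2F motif (TTTCCCGC, TTTGGCGC, TTTCGCGC or TTTGCCGC), the cell cycle homology region (TTTGAA or TTCGAA) and CCAAT. Each was searched on both strands, so that for example ATTGG stands for CCAAT. Between the 3 kinds of motif no matches overlapped in these 4 stretches, although E2F matches can overlap each other. Mki67 (chr7:135716380-135716629, minus strand) encodes the Ki-67 protein of dividing cells and held 2 homology regions and 3 CCAAT boxes. Top2a (chr11:99024190-99024439, minus strand) encodes the topoisomerase that untangles sister DNA and held 4 homology regions and 6 CCAAT boxes. Mcm6 (chr1:128359706-128359955, minus strand) and Mcm5 (chr8:75109259-75109508, plus strand) encode subunits of the replicative helicase and held 3 and 2 E2F matches, with 2 CCAAT boxes each and no homology region.
Mki67: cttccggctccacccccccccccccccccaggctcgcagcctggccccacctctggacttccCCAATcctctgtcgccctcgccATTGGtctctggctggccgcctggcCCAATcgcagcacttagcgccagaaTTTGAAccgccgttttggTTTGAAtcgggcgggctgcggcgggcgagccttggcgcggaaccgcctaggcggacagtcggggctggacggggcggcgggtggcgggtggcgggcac
Top2a: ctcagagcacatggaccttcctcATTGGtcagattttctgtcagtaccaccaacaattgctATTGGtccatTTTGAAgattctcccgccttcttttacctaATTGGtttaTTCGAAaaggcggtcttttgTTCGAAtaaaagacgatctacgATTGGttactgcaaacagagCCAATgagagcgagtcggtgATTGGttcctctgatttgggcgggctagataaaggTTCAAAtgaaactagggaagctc
Mcm6: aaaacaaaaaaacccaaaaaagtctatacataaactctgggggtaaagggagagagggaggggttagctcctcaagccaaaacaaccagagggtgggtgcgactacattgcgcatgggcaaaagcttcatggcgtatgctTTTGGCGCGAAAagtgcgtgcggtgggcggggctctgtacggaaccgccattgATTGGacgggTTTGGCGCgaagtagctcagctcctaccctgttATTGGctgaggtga
Mcm5: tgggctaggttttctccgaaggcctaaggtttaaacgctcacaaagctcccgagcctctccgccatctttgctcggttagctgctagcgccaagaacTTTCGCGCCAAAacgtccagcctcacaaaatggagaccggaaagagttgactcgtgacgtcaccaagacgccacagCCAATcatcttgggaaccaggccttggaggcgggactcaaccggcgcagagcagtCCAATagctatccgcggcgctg

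Over the whole RefSeq window, from 250 bases before to 50 after the start, 30 of the 38 members had an entry; Mcm4, Gins2, Ccnd1, Ccne2, Ccna2, Aurkb, Tpx2 and Stmn1 did not. An E2F match was in 5 of 12 replication windows (Mcm3, Mcm5, Mcm6, Mcm7 and Cdc6), in 1 of 16 mitosis windows (Cdk1) and in 2.60% of the windows of all 27025 genes. The homology region was in 13 of 16 mitosis windows and 3 of 12 replication windows, against 21.7% of all genes. CCAAT was common in both roles, in 14 of 16 mitosis and 9 of 12 replication windows, against 41.1% of all genes. All 13 mitosis windows and all 3 replication windows with the homology region also held CCAAT, a pair found in 8.61% of all genes. Further cell cycle genes, listed from textbook roles, showed like shares: the E2F motif was in 17 of 41 other replication genes and 6 of 58 other mitosis genes. The homology region was in 9 of 41 and 39 of 58. These are matches of letters in a window, not measured binding sites.

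The libraries differed in the cells they held, which bears on every comparison. Library totals ran from 3273258 to 6315782 counts, and levels are given in CPM (counts per 1000000 counts of the library, after TMM scaling). Unlike all others was the first library of 4-month white matter. There the summed level of 15 microglia markers was 6111 CPM, against 20137 to 33121 in the other 7. Its 10 markers of mature oligodendrocytes, the myelin-forming cells, summed to 63569 CPM against 199 to 796. All 12 granulocyte precursor markers were in the table, and their sum was 1847 and 957 CPM in the 4-month and 1083 and 932 in the 21-month grey matter libraries, against 46.5 and 242 and 121 and 16.6 in white matter. Of these, Elane, Prtn3, Ctsg, Ms4a3, Fcnb, Cebpe and Gfi1 were at 0 in at least 1 library. The 11 erythroid precursor markers in the table summed to 370.1 CPM in the first 4-month grey matter library and 20.1 to 64.2 in the others, led by Alas2. The defining factors Klf1 and Gata1 were at or below 0.349 and 0.837 CPM in every library. The sum of 8 choroid plexus and ependymal markers was 5439 and 7103 CPM in 4-month white matter, 11778 in the second 21-month white matter library and at most 468 elsewhere. The part of these other cells in the comparisons was not tested. In bulk RNA, fewer cells of a type and less RNA per cell cannot be told apart.

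The members were expressed at modest levels, and the mitosis genes shared a pattern over libraries that the replication genes did not. In the second 21-month grey matter library, 15 of the 20 mitosis genes had their highest level of all 8 libraries, and 13 of the 20 had their lowest in the first 4-month white matter library. Among the 14 replication genes the highest level fell in that latter library for 6, in the first 4-month grey matter library for 4, and in each of the 21-month libraries for 1. No share over all genes was set beside these counts, so they describe the members only. The first 4-month white matter library had a TMM factor of 0.619, against 0.911 to 1.16 in the others. On library totals its levels would be lower by that factor, so the highest levels there depend on the scaling. Counts per gene and library ran from 0 to 819. Of the 38 members, 31 passed the filter on low counts and were tested. Cdc6, Ccne1, Cdk1, Ccnb1, Birc5, Plk1 and Aurka did not pass. A count of 0 was met in at least 1 library for Ccne1, Ccnb1, Ccnb2, Birc5, Plk1 and Aurkb. In the first 4-month white matter library a count of 0 allows a level of up to 1.09 CPM (3 counts; counting error only).

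**Figure D1:**
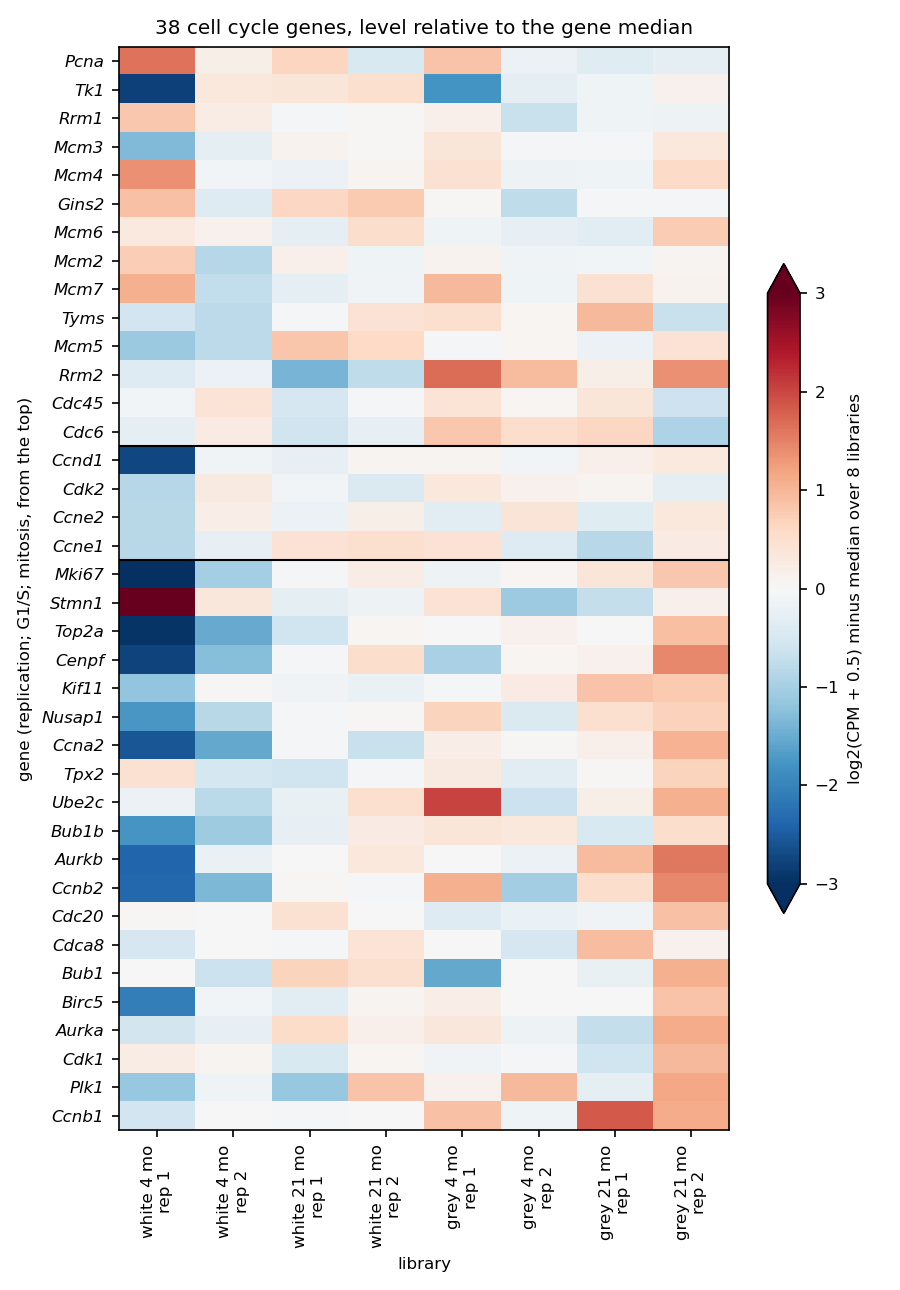
Level of each of the 38 genes in the 8 libraries, as log2(CPM + 0.5) minus the gene's median over the libraries (red higher, blue lower; the colour scale ends at 3 in both directions), with replication genes at the top, then G1/S regulators, then mitosis genes, each ordered by mean CPM. The last column, the second 21-month grey matter library, holds the highest level of 15 of 20 mitosis genes, and the first column, the first 4-month white matter library, the lowest of 13. No share over all genes was set beside these counts.

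Among the replication genes, Pcna, the sliding clamp that holds DNA polymerase on its template, was at 119.9 and 43.1 (4 months) and 60.3 and 27.8 (21 months) in white matter, and at 69.6 and 34.2 (4 months) and 29.9 and 31.3 (21 months) in grey matter (in CPM, replicate 1 before replicate 2, as for every gene named with its libraries). The first library of white matter at 4 months was the highest, and the groups overlapped except between the ages in grey matter, where both 21-month libraries lay below both 4-month ones. Reads of Pcna may be shared with its copy Pcna-ps2, which was listed at 56.1 to 170.4 CPM, so the level of Pcna is uncertain. Tk1, thymidine kinase of the nucleotide salvage route, was at 4.72 and 44.9 (4 months) and 46.1 and 50.2 (21 months) in white matter, and at 9.94 and 29.4 (4 months) and 32.9 and 39.1 (21 months) in grey matter. Tk1 was low in the first libraries of 4-month white and grey matter and between 29.4 and 50.2 CPM elsewhere. These 2 libraries had the largest globin sums, 6882 and 25756 CPM, against at most 2601 elsewhere. The first 4-month white matter library was also the one low in microglia markers and rich in oligodendrocyte markers. The part of red cell RNA or of other cells in the level of Tk1 was not tested. Both 21-month white matter libraries were above every grey matter library for Tk1.

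Rrm1, the large subunit of ribonucleotide reductase, which makes deoxynucleotides, was at 44.0 and 28.8 (4 months) and 24.1 and 25.6 (21 months) in white matter, and at 27.6 and 15.4 (4 months) and 22.6 and 22.3 (21 months) in grey matter. Both white matter libraries were above both grey matter ones at each age for Rrm1, by small margins. Its partner Rrm2, whose protein is made in S phase, was at 1.45 and 1.76 (4 months) and 0.473 and 0.993 (21 months) in white matter, and at 7.67 and 4.39 (4 months) and 2.38 and 6.14 (21 months) in grey matter. Here white matter was below grey matter at each age, and the lowest level rests on 2 counts. Of the helicase subunits, Mcm3 was at 9.81 and 20.8 (4 months) and 27.2 and 26.1 (21 months) in white matter, and at 32.6 and 24.5 (4 months) and 24.6 and 31.5 (21 months) in grey matter. Leaving the first 4-month white matter library aside, Mcm3 stayed within a 1.57-fold range. Mcm4 was at 28.0 and 9.78 (4 months) and 9.22 and 11.2 (21 months) in white matter, and at 14.5 and 9.32 (4 months) and 9.51 and 15.9 (21 months) in grey matter. It was highest in the first 4-month white matter library, and the groups overlapped in every comparison.

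Gins2, a part of the GINS complex that works with the helicase, was at 15.3 and 6.02 (4 months) and 12.8 and 14.4 (21 months) in white matter, and at 8.37 and 4.57 (4 months) and 7.72 and 7.82 (21 months) in grey matter. Both 21-month white matter libraries were above both 21-month grey matter libraries. In the GENCODE M21 annotation 70.7% of the exon bases of Gins2 are shared with Gse1 on the opposite strand. Whether counting used strand is not given in the sources used here, and without it reads of these genes cannot be told apart. The other replication genes were lower in counts: Mcm2, Mcm5, Mcm6, Mcm7, Cdc45, Cdc6 and Tyms lay between 0.279 CPM (Cdc6 in the second 21-month grey matter library) and 13.7 CPM (Mcm6 in the same library). Mcm5 was higher in both 21-month white matter libraries (5.68 and 4.72) than in the others (1.09 to 4.19).

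Of the G1/S regulators, Ccnd1, the D-type cyclin that starts G1 progression, was at 18.9 and 118 (4 months) and 109 and 136 (21 months) in white matter, and at 135 and 121 (4 months) and 142 and 158 (21 months) in grey matter. It was far lower in the first 4-month white matter library than in any other, and the remaining 7 lay within a 1.45-fold range. Cdk2, the kinase partner of cyclins E and A, was at 21.4 and 47.7 (4 months) and 37.1 and 29.1 (21 months) in white matter, and at 48.8 and 42.8 (4 months) and 41.4 and 31.8 (21 months) in grey matter. Both 21-month grey matter libraries were below both 4-month ones for Cdk2. The cyclins E themselves were barely counted: Ccne2 was at 0.727 and 2.01 (4 months) and 1.42 and 1.99 (21 months) in white matter, and at 1.22 and 2.38 (4 months) and 1.19 and 2.23 (21 months) in grey matter. Ccne1 was at 0 and 0.251 (4 months) and 0.710 and 0.745 (21 months) in white matter, and at 0.698 and 0.183 (4 months) and 0 and 0.558 (21 months) in grey matter, with at most 4 counts in a library.

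Among the mitosis genes, Mki67 was at 4.36 and 26.3 (4 months) and 51.1 and 62.8 (21 months) in white matter, and at 48.5 and 56.3 (4 months) and 69.3 and 94.3 (21 months) in grey matter. The order of the group means was 4-month white matter (15.4 ± 15.5 CPM, SD, n = 2), 4-month grey matter (52.4 ± 5.53), 21-month white matter (57.0 ± 8.30) and 21-month grey matter (81.8 ± 17.7). The libraries of the middle pair overlapped and those of the others did not. With 12 counts in the first 4-month white matter library, the 95% exact binomial (Clopper-Pearson) interval of its level was 2.25 to 7.62 CPM. With 338 counts in the second 21-month grey matter library it was 84.6 to 105 CPM, counting error only. Top2a was at 1.45 and 4.77 (4 months) and 9.46 and 15.1 (21 months) in white matter, and at 14.5 and 15.9 (4 months) and 14.7 and 27.6 (21 months) in grey matter. Both 4-month white matter libraries were the lowest of all 8 for Top2a, and the second 21-month grey matter library was the highest.

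Cenpf, a protein of the kinetochore, which attaches chromosomes to the spindle, was at 1.09 and 4.01 (4 months) and 9.93 and 15.1 (21 months) in white matter, and at 5.06 and 11.0 (4 months) and 11.5 and 29.0 (21 months) in grey matter. At 21 months the white and grey matter libraries overlapped, and within each region both 21-month libraries were above both 4-month ones. Kif11, the motor that pushes the spindle poles apart, was at 2.54 and 6.52 (4 months) and 5.91 and 5.46 (21 months) in white matter, and at 6.28 and 7.68 (4 months) and 12.1 and 11.4 (21 months) in grey matter. Both 21-month grey matter libraries stood above the other 6. Nusap1, which bundles spindle microtubules, was at 1.09 and 2.51 (4 months) and 4.73 and 4.97 (21 months) in white matter, and at 8.02 and 3.47 (4 months) and 6.93 and 8.09 (21 months) in grey matter, lowest in 4-month white matter and overlapping between the ages in grey matter.

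Stmn1, a regulator of microtubules that neural cells also express, broke with the rest. It was at 298 and 8.28 (4 months) and 5.20 and 5.71 (21 months) in white matter, and at 8.90 and 2.74 (4 months) and 3.76 and 7.26 (21 months) in grey matter. The other 7 libraries did not exceed 8.90 CPM. The first 4-month white matter library also held the oligodendrocyte markers given above. Tubb3, a neuronal tubulin, was at 49.8 CPM there against at most 0.745 elsewhere. Of other neuroblast markers in that library, Stmn2 was at 0 and Dcx at 0.363 CPM. Cd24a was at 19.3 CPM there, against 148 in the first 4-month grey matter library. The part of oligodendrocyte or neuronal RNA in the level of Stmn1 was not tested. The remaining 14 mitosis genes had maxima between 1.95 CPM (Plk1, the polo-like kinase) and 11.9 CPM (Ube2c, the enzyme that tags mitotic cyclins for destruction). Ube2c peaked in the first 4-month grey matter library and stayed at or below 5.86 CPM elsewhere. 

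Ccna2, cyclin A2, was at 0.363 and 1.25 (4 months) and 4.49 and 2.73 (21 months) in white matter, and at 5.41 and 4.75 (4 months) and 5.15 and 10.0 (21 months) in grey matter. Aurkb, the kinase of the chromosomal passenger complex, was at 0 and 1.76 (4 months) and 2.13 and 2.73 (21 months) in white matter, and at 2.09 and 1.83 (4 months) and 4.56 and 7.26 (21 months) in grey matter. Both, like Ccnb2 (cyclin B2, at 6.42 CPM), were highest in the second 21-month grey matter library, and both were lowest in 4-month white matter, where Aurkb had a count of 0 in the first library.

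**Figure D2:**
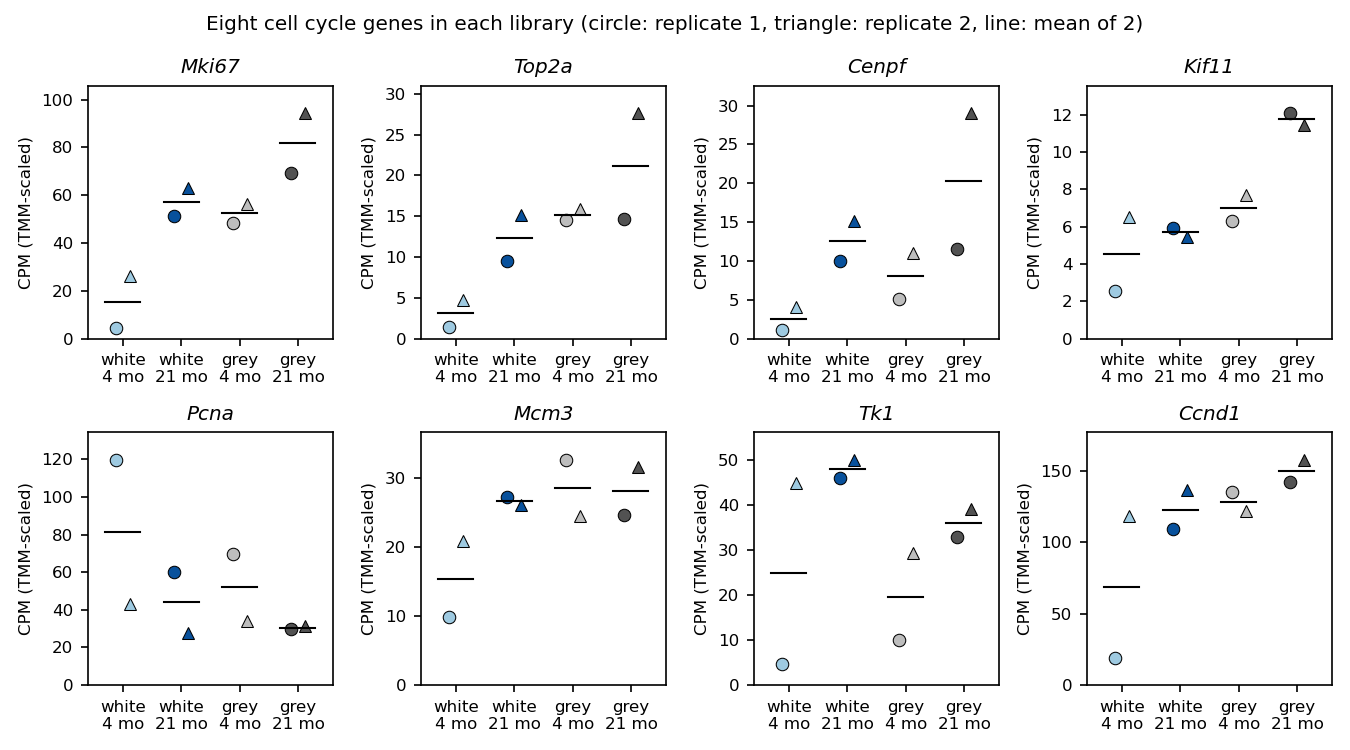
Level in CPM (vertical axis from 0) of 4 mitosis genes (top row) and of 3 replication genes and Ccnd1 (bottom row) in each of the 4 groups, with a circle for replicate 1, a triangle for replicate 2 and a line at the mean of the 2. Mki67 ran from 4.36 CPM in the first 4-month white matter library to 94.3 in the second 21-month grey matter library, while Pcna was highest in the first of these.

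The first comparison was between white and grey matter at 21 months. Of the 15 tested mitosis genes, 13 had a log2 fold change below 0, that is, a lower level in white matter. Among all 20, 8 (Mki67, Ccna2, Ccnb1, Ccnb2, Aurkb, Tpx2, Kif11 and Nusap1) had both white matter libraries below both grey matter ones, and 0 had both above. The replication genes were divided, with Mcm5, Gins2, Rrm1 and Tk1 higher in both white matter libraries and Mcm7 and Rrm2 lower. Over the tested members of all 3 roles, 10 of 31 lay wholly below and 4 of 31 wholly above, where 19.5% and 20.9% of all 16237 tested genes did. The median log2 fold change was -0.63 over the 15 tested mitosis genes, -0.07 over the 13 tested replication genes and 0.02 over all genes. Among other genes of the same pathways, 34 of 52 tested mitosis genes and 16 of 39 tested replication genes lay below 0, with medians of -0.27 and 0.07.

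No single member passed the test at 21 months. In edgeR's quasi-likelihood test over the 8 libraries, 0 of 31 members and 0 of 16237 genes (0%) had an adjusted p under 0.05, and 1 member (Rrm2) and 381 genes (2.35%) had an unadjusted p under 0.05. The fit of the 4 libraries at 21 months alone called 232 of 14717 genes (1.58%), 145 higher and 87 lower in white matter, and 0 of 29 members; 5 members had an unadjusted p under 0.05. In that fit the log2 fold change was -0.53 ± 0.20 (SE) for Mki67 (edgeR adjusted p = 0.324), -1.06 ± 0.36 for Kif11 (0.268), -2.47 ± 0.80 for Rrm2 (0.225) and 0.79 ± 0.33 for Gins2 (0.395). Without the first 4-month white matter library, which lends its spread to the fit of all 8, 19 of 17509 genes (0.109%) and 0 of 35 members were called. DESeq2 called 48 genes and limma voom with quality weights 123, with 0 members among them. In all 5 comparisons, limma voom and limma on the deposited normalised values called 0 members.

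In grey matter, 12 of the 15 tested mitosis genes and 7 of the 13 tested replication genes had a log2 fold change above 0 at 21 against 4 months. Both 21-month libraries were above both 4-month ones for 7 of the 20 mitosis genes (Mki67, Ccnb1, Cdc20, Cdca8, Aurkb, Kif11 and Cenpf), for 1 of 14 replication genes (Tk1) and for Ccnd1. Both were below for Pcna and Cdk2 and for 0 mitosis genes. Of the tested members 8 of 31 lay wholly above and 2 of 31 wholly below, where 17.2% and 17.3% of all genes did. The median log2 fold change was 0.64 over tested mitosis genes, 0.07 over tested replication genes and -0.02 over all genes. The other listed mitosis and replication genes had medians of 0.23 and -0.18. No gene was called by edgeR in the fit of all 8 libraries (0%), of the 4 grey matter libraries alone (0%) or with the first young white matter library left out (0%). In these fits 0, 2 and 3 members had an unadjusted p under 0.05. In the grey matter libraries alone the log2 fold change was 0.65 ± 0.25 for Mki67, 1.59 ± 0.64 for Aurkb and 1.33 ± 0.59 for Cenpf, each at an edgeR adjusted p of 0.977.

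In white matter, mitosis genes were higher at 21 than at 4 months in both libraries for 10 of 20: Mki67, Top2a, Ccna2, Ccnb2, Bub1, Bub1b, Aurka, Aurkb, Cenpf and Nusap1. Cdk1 and Stmn1 were lower. Of the replication genes Mcm3, Mcm5, Tyms and Tk1 were higher and Rrm1 and Rrm2 lower. Of the tested members 13 of 31 lay wholly above and 3 of 31 wholly below, where 19.8% and 15.4% of all genes did. The median log2 fold change was 1.33 over tested mitosis genes and -0.13 over tested replication genes with all 8 libraries. When the first 4-month library was left out it was 1.10 over the same 15 mitosis genes, 0.82 over the 19 that then passed the filter, and 0.09 over replication genes.

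This comparison rests on the pair of 4-month white matter libraries, which differ in the marker levels given above. No gene was called in the fit of all 8 libraries (0%) or of the 4 white matter libraries alone (0%), and 1 of 17509 (0.00571%) without the first 4-month library, not a member. In these fits 6, 2 and 2 members had an unadjusted p under 0.05. When the second 4-month library was left out instead, so that the group was the library rich in oligodendrocyte RNA, 25.1% of genes and 8 members were called: Mki67, Top2a, Cenpf, Aurkb, Mcm3, Tk1 and Ccnd1 higher and Stmn1 lower at 21 months. Without a filter on low counts 2.93% of genes were called, with Mki67 higher and Stmn1 lower, and DESeq2 called 2.95% of genes, with Stmn1 the only member. For Mki67 the log2 fold change was 1.87 ± 0.70 with all libraries (edgeR adjusted p = 0.615), 1.10 ± 0.32 without the first 4-month library (adjusted p = 1.00) and 3.72 ± 0.42 without the second (6.75e-04). Pcna turned from -0.88 ± 0.61 to 0.02 ± 0.54 without the first.

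White and grey matter at 4 months were compared with the same limit. In both white matter libraries 11 of the 20 mitosis genes were below both grey matter ones, among them Mki67, Top2a and Cenpf, and so were 5 of 14 replication genes (Mcm3, Mcm5, Cdc6, Tyms and Rrm2) and Ccnd1. Mcm6, Rrm1, Cdk1 and Cdc20 were above. Of the tested members 13 of 31 lay wholly below and 3 of 31 wholly above, where 15.5% and 13.4% of all genes did. The median log2 fold change of tested mitosis genes was -1.59 over 15 genes with all 8 libraries. With the first white matter library left out it was -0.98 over the same 15 and -0.58 over the 19 that then passed the filter. For replication genes it was 0.14 with all libraries and -0.26 without that one. Without that library Top2a was at -1.65 ± 0.57 and Mki67 at -0.98 ± 0.32, both with an edgeR adjusted p of 0.920.

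No gene was called at 4 months by edgeR in the fit of all 8 libraries (0%), of the 4 libraries at that age (0%) or with the first white matter library left out (0%), with 8, 2 and 3 members at an unadjusted p under 0.05. Without the second white matter library 23.6% of genes and 7 members were called (Stmn1 higher in white matter; Mki67, Top2a, Ccna2, Ccnd1, Cdk2 and Mcm3 lower). Without a filter on low counts 3.39% of genes were called, among them Mki67, Top2a and Stmn1, and with DESeq2 3.6%, with Stmn1 the only member.

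Whether the age difference was larger in 1 region than in the other was tested as the difference between the 2 age contrasts. No gene (0%) and no member was called by edgeR, with 1 member (Stmn1) and 455 genes at an unadjusted p under 0.05. For Mki67 this difference was 1.23 ± 0.96 on the log2 scale with all libraries and 0.45 ± 0.39 once the first 4-month white matter library was dropped, where again no gene was called (0%). Without the second of those libraries 13.6% of genes were called, with Mki67, Ccnd1 and Stmn1 among them. Without a filter on low counts 1.43% were, with Stmn1 the only member. The 5 comparisons share libraries, so their counts are not independent.

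**Figure D3:**
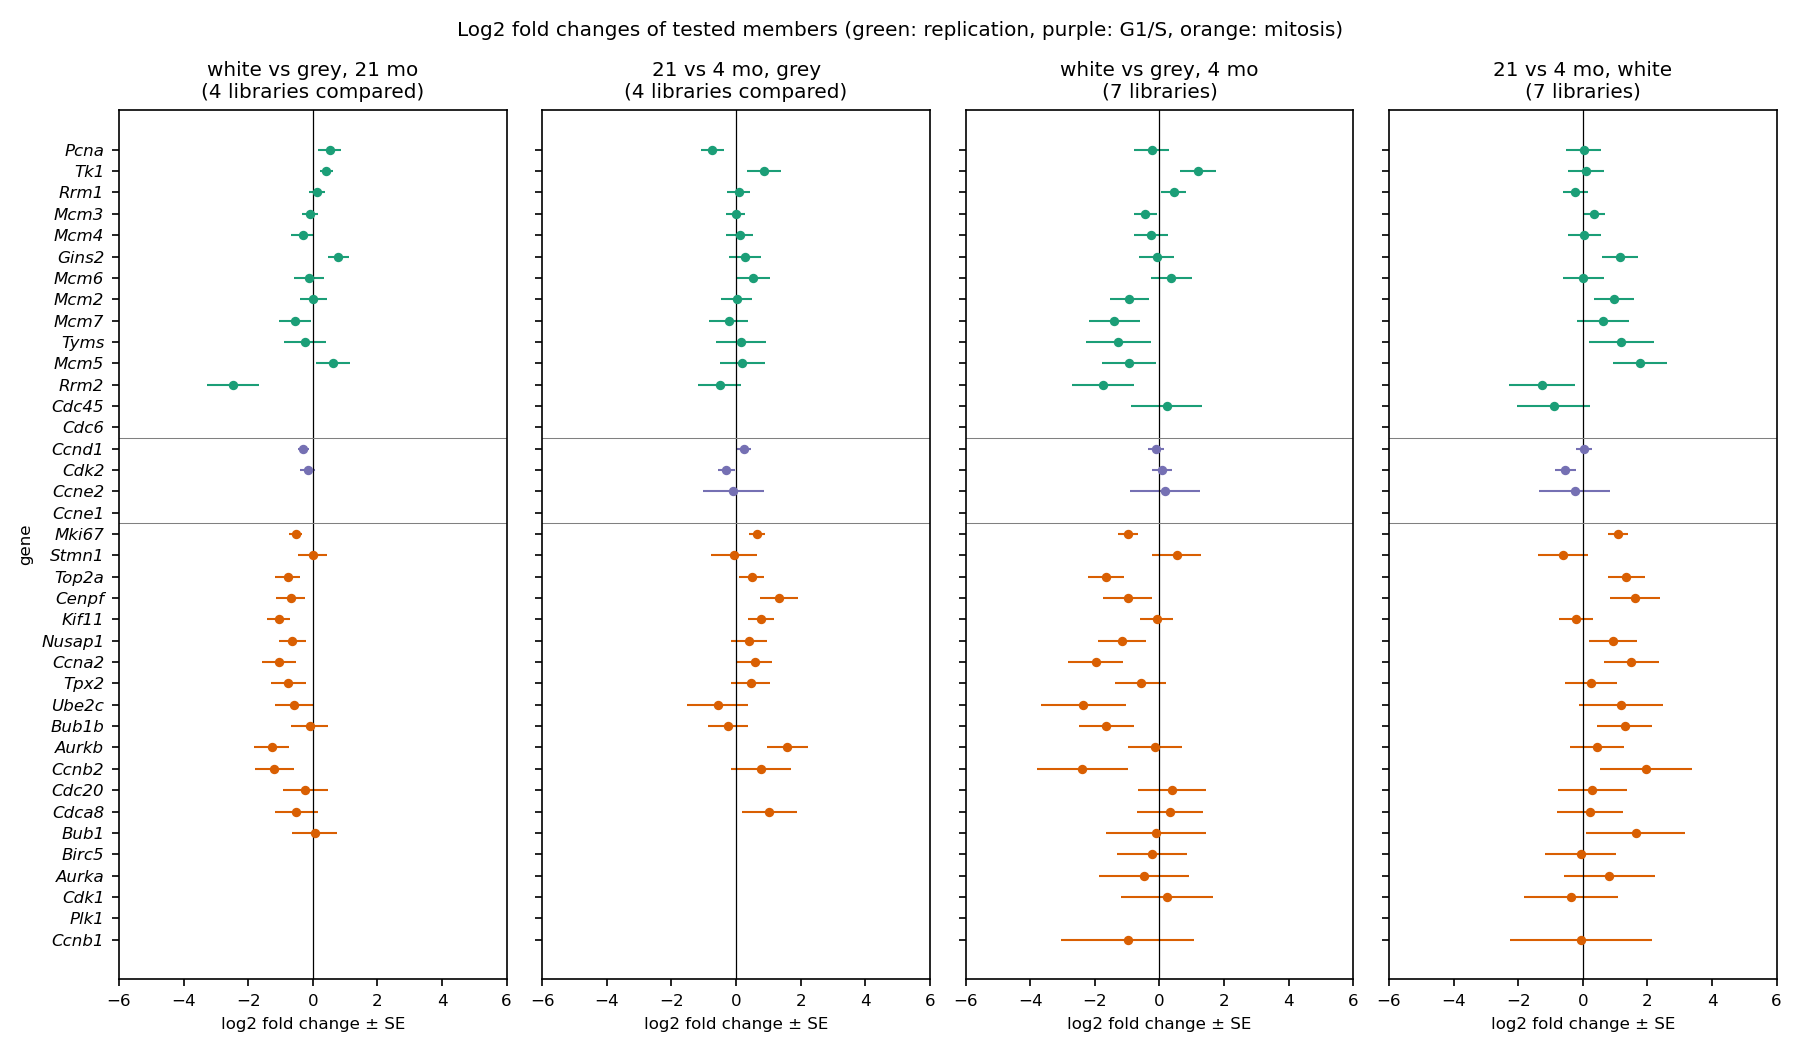
Log2 fold change with its standard error, derived from the F statistic (horizontal axis), of every tested member in 4 comparisons, from edgeR on the 4 libraries compared (left pair) or on 7 libraries without the first 4-month white matter library (right pair). Green marks replication genes, purple G1/S regulators and orange mitosis genes. No point passed an adjusted p of 0.05. Mki67, Top2a and Cenpf lie on the same side as each other in each panel, but not all mitosis genes do. Cdc20, for example, was higher in white than in grey matter at 4 months. Replication genes lie on both sides of 0.

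The last question was whether the members followed microglia or precursors of blood cells. Across the 7 libraries without the first 4-month white matter one, the summed level of the replication genes spanned 1.40-fold, that of the G1/S regulators 1.30-fold and that of the mitosis genes without Stmn1 3.79-fold. Over the same libraries the microglia markers spanned 1.64-fold, the erythroid precursor markers 18.4-fold and the granulocyte precursor markers 111-fold. The erythroid span rests on the first 4-month grey matter library, at 370.1 CPM against 20.1 to 64.2 elsewhere. The 10 markers of early blood progenitors spanned 1.93-fold, but their sum was led by Cdk6 and Cd34, while the stem and progenitor receptor genes Kit and Flt3 stayed at or below 3.47 and 6.93 CPM in these libraries. Cdk6 is also a kinase of G1 and so a cell cycle gene itself. Without Cdk6 and Cd34 the early progenitor markers spanned 2.82-fold, between the microglia markers and the mitosis genes. At 21 months the ratio of grey to white matter means was 1.57 for mitosis genes without Stmn1 and 0.875 for replication genes. It was 1.01 for microglia markers, 0.820 for early blood progenitor markers with and 1.94 without Cdk6 and Cd34, 2.40 for erythroid and 14.7 for granulocyte precursor markers. At 21 months the mitosis ratio thus lay between that of microglia markers and those of the precursor lists, except the progenitor list led by Cdk6 and Cd34. In grey matter the 21- to 4-month ratio was 1.56 for mitosis genes without Stmn1, above all these lists. It was 0.778 for microglia, 0.718 for granulocyte, 0.241 for erythroid and 1.35 (1.30 without Cdk6 and Cd34) for progenitor markers. The granulocyte sum was led by Ngp, Ltf and Chil3. In grey matter Elane was at 22.0 and 8.23 CPM at 4 months and 11.9 and 26.5 at 21 months. Mpo was at 76.7 and 33.5 and at 38.2 and 74.2 CPM. Prtn3 and Ctsg overlapped between the ages too. For 4-month grey matter over the second 4-month white matter library the ratio was 1.99 for mitosis genes and 1.35 for microglia. There it was 0.790 (1.22 without Cdk6 and Cd34) for progenitor, 9.74 for erythroid and 5.80 for granulocyte markers. The erythroid ratios 0.241 and 9.74 rest mostly on the first 4-month grey matter library, as the second was at 40.2 CPM. In these bulk libraries the cells that held the transcripts were not measured. These sums are descriptions of libraries, share each library's depth and carry no test.

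In CPM, the mitosis sum without Stmn1 stood at 25.8 and 61.7 (4 months) and 109 and 136 (21 months) in white matter, and at 126 and 120.5 (4 months) and 149 and 234 (21 months) in grey matter. Per 1000 CPM of microglia markers it ran from 2.92 to 9.65 CPM over all 8 libraries, and the first 4-month white matter library, at 4.22, lay inside the range of the others. That holds only with Stmn1 left out. Stmn1 made up 92.0% of the full mitosis sum of 323 CPM in that library. Mki67 was 16.9% of the sum without Stmn1 there, against 38.6% to 47.1% in the others. Per 1000 CPM of granulocyte precursor markers the mitosis sum without Stmn1 ran from 68.0 to 8149 CPM. The replication sum, also in CPM, stood at 258 and 176 (4 months) and 207 and 188 (21 months) in white matter, and at 204 and 147 (4 months) and 160.2 and 186 (21 months) in grey matter. On library totals the first value, 258, would fall to 0.619 of that size. Per 1000 CPM of microglia markers the replication sum ran from 6.17 to 9.27 CPM in 7 libraries and stood at 42.2 in the first 4-month white matter library, outside the range of the others.

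Levels of single precursor genes were set beside Mki67. In 21-month white matter, where Mki67 was at 51.1 and 62.8 CPM, Elane, neutrophil elastase, was at 0.710 and 0.497 CPM, Mpo, myeloperoxidase, at 4.26 and 0.497 and Ctsg, cathepsin G, at 0 in both. Other genes were higher there: Ngp, a neutrophil granule protein, was at 75.0 and 9.68 CPM, Ltf, lactoferrin, at 19.2 and 1.99 and Chil3 at 12.5 and 3.48. Of the early progenitor markers, Cdk6 was at 248 and 264 and Cd34 at 260.2 and 180.3 CPM in these libraries. In the first 4-month grey matter library Elane was at 22.0 and Mpo at 76.7 CPM, with Mki67 at 48.5. The second 21-month grey matter library combined the highest levels of most mitosis genes with the highest Elane, 26.5 CPM, and the highest Myb, a factor of early blood progenitors, 8.65 CPM against at most 4.75 elsewhere. Ctsg and the early progenitor markers Cdk6 and Hlf were also highest there, Cdk6 at 268 against 264 CPM in the second 21-month white matter library. By contrast, Ngp, Ltf and Chil3 were highest in the first 4-month grey matter library. Mpo and Prtn3 were highest there by small margins, at 76.7 and 4.19 CPM, against 74.2 and 3.63 in the second 21-month grey matter library. Flt3 in the latter was at 0.837 CPM, against 6.93 in the first 21-month grey matter library. The summed granulocyte precursor level of this second library, 932 CPM, was the lowest in grey matter. The part of such cells in the mitosis levels of these libraries was not tested. Rrm2, Ube2c and Cdc6 peaked in the first 4-month grey matter library, at 7.67, 11.9 and 2.09 CPM, as did Mcm3, Cdc45 and Cdk2. That library had the largest globin and erythroid sums. Its microglia, granulocyte precursor, mature neutrophil and monocyte sums were the largest too. The part of any of these cells in those levels was not tested.

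**Figure D4:**
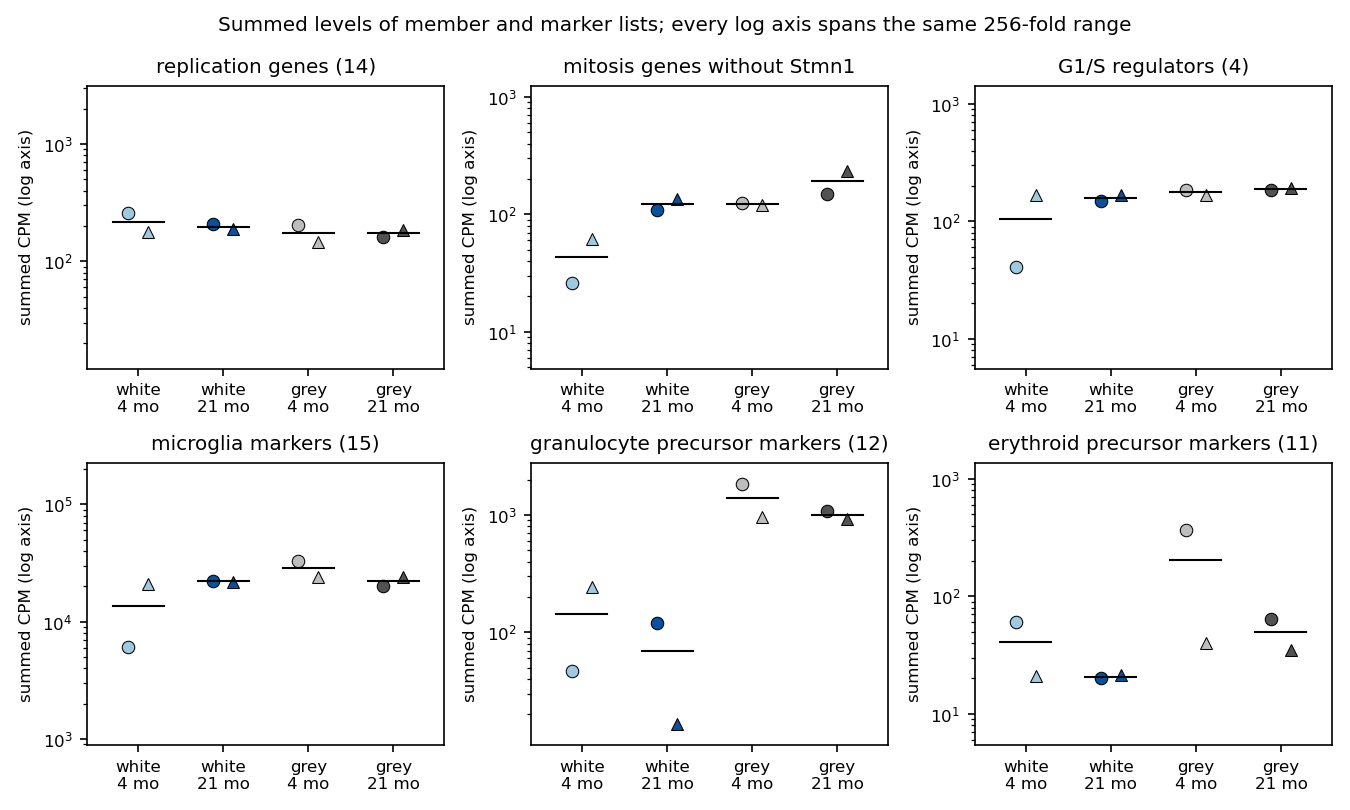
Summed CPM in each library (log axes, all spanning the same fold range) of the replication genes, the mitosis genes without Stmn1, the G1/S regulators and 3 marker lists. Circles are replicate 1, triangles replicate 2 and lines the mean of the 2. Granulocyte precursor markers differ 111-fold between libraries and are high in grey matter, while the replication sum stays between 147 and 258 CPM. The 258 CPM is from the first 4-month white matter library, whose TMM factor was 0.619.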

How the data were processed

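RNA of 8 libraries was sequenced on an Ion Proton instrument, per the labels. The authors deposited a table of estimated counts per gene symbol, where 15.9% to 17.8% of a library's values above 0 were fractional (tolerance 1e-06), and a normalised signal for part of the genes. The submitters' processing notes name Partek and DESeq2. The aligner, build, annotation and strandedness were not given in the sources used here. The deposited signal was used in 1 alternative only.

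The estimated counts were rounded. Low genes were removed by filterByExpr in edgeR 4.0.16 (R 4.3.3), libraries were scaled by TMM, and 4 group means were fitted to all 8 libraries with the robust quasi-likelihood model. Calls needed an adjusted p (Benjamini-Hochberg, over all genes tested) under 0.05. An exact permutation test of 2 libraries against 2 cannot go below p = 0.333, so single genes were tested only through such models. Each SE given with an edgeR log2 fold change was its absolute value divided by the square root of the F statistic. The fits were tested on simulated counts. Alternatives were RLE scaling, library totals, no filter, DESeq2 1.42.0, limma 3.58.1 (voom with quality weights, and log2 of the deposited signal plus 1), the replicate number as a block, each library left out, and only the 2 groups compared.

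The members, gene lists and marker lists were chosen with earlier results of these data known. Values in every library are given for the 6 genes with the highest mean CPM in each of replication and mitosis, for the 4 G1/S regulators, and for Mki67, Top2a and Pcna; the rule also takes members called with all 8 libraries, in the groups compared alone or without the first 4-month white matter library, of which there were 0. Ccna2 and Aurkb were added after their values were seen. Called genes of the other cell cycle lists and the 3 highest genes of each marker list could also be named; further members and marker genes given as examples were chosen after their values were seen.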

Additional observations from a re-analysis of the deposited data

How the results depend on the processing

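No member was called in edgeR's filtered, TMM-scaled fit of all 8 libraries, and none under RLE scaling, library totals, limma or the fits of 2 groups. The titles number the libraries 1 and 2 in each group. With the replicate block, 0 members were called in each of the 5 comparisons; the labels give the number no meaning, and correlations of the replicate differences between groups ran from -0.15 to 0.40, the highest between white and grey matter at 4 months, so whether numbers mark shared animals is not known. Of 1183 single-gene values under alternatives, 1150 kept direction and side of the threshold, 24 passed it and 9 reversed; 63 sign changes with both values under 1 SE are counted as kept. Counts of called members moved as follows, without a filter and with DESeq2: 3 and 1 for white against grey matter at 4 months, 2 and 1 for age in white matter, and 1 without a filter for the age by region difference. Called genes rose from 0, at 21 months, to 147 without a filter, 48 with DESeq2, 123 with voom and 232 with only the groups compared. For white against grey matter at 4 months they were 1113 without a filter and 586 with DESeq2, for age in white matter 963 and 425, for the difference 470 and 39, and for age in grey matter 17 without a filter. Leaving out each library in turn gave 0 to 19 called genes at 21 months, 0 to 4222 genes and 0 to 7 members at 4 months, 0 to 4491 and 0 to 8 for age in white matter, and 0 to 2422 and 0 to 3 for the difference, the highest counts of the last 3 with only the first 4-month white matter library in its group. The median of the 15 mitosis genes tested with all libraries then ran from -2.40 to -0.92 at 4 months, from 1.10 to 2.15 for age in white matter and from 0.10 to 1.77 for the difference. Signs of single genes reversed, all on leaving out a 4-month white matter library, in these ranges. At 4 months they were Pcna -0.24 to 1.23, Mcm4 -0.26 to 1.20, Gins2 -0.083 to 1.20 and Tk1 -2.08 to 1.33. For age in white matter they were Pcna -1.54 to 0.025, Mcm4 -1.43 to 0.045 and Cdk2 -0.54 to 0.65. For the difference they were Pcna -0.79 to 0.77 and Tk1 -0.91 to 2.50. Library totals in place of TMM, an alternative chosen after seeing the data for groups that do not overlap, gave 3 replication genes wholly above in 21-month grey matter where TMM gave 1. Depth limited the 7 members under the filter, which had at most 12 counts in a library; they were tested only in alternatives, with no call.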
